A study of Mus musculus with 9 samples.

Results

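Naa35 and Golm1 are neighbouring mouse genes on chromosome 13 that are transcribed towards each other, with 3′ ends that overlap or lie close together depending on the annotation. They are 2 of the 55228 features counted in RNA sequencing of the mouse uterus. The pair was chosen by measured values, namely the counts of Naa35 in sham, injury and CRC libraries, which were higher after injury and lower after cell transplantation. The levels of both genes in these groups are therefore given as a description, without a test. They are levels of the counts assigned to each feature, and whether the counts on Naa35 came from RNA of Naa35 or of Golm1 on the opposite strand cannot be told apart in these files.

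The series addresses intrauterine adhesion, a scarring of the uterine cavity, and asks how gene expression differs when endometrial cells are transplanted after injury. All recipients were C57BL female mice of WT genotype, aged 8 weeks. Mice of the injury and CRC groups had the lining of the uterus damaged mechanically by 10 passes of a 27-gauge needle. PBS (50 μL) was then given to the injury group, and the same volume with 1000000 WT CRCs to the CRC group. CRCs are conditionally reprogrammed endometrial epithelial cells, expanded in culture on irradiated feeder cells. Mice of the sham group had a sham operation. Uteri were collected on day 7, and each group had 3 libraries, with 3 mice per group according to the labels. In RNA of whole tissue, fewer cells of a type and less RNA per cell cannot be told apart.

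Naa35 is the auxiliary subunit of NatC, an enzyme complex that adds an acetyl group to the N-terminus of newly made proteins. The catalytic subunit of NatC is Naa30, and Naa38 is a further auxiliary subunit. NatC binds the ribosome and acts on proteins whose initiator methionine is followed by certain hydrophobic residues. Golm1, also known as GP73, is a membrane protein of the cis-Golgi that is found mainly in epithelial cells and is raised in the liver during disease. The products of the neighbours thus act in different compartments, the cytosol for Naa35 and the secretory pathway for Golm1.

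The deposited counts on features came to 325384, 317754 and 327883 in sham replicates 1 to 3, to 290684, 280886 and 282937 in injury and to 288619, 289964 and 290833 in CRC. These were between 0.776% and 0.898% of the records of a library, which had 34046496 to 39204442 records. Of all records 90.4% were listed as lying in no feature. With these counts on features, 1 count was worth 3.05 to 3.70 CPM, the count after scaling to a common library size. With 0 counts observed, up to 3 counts (9.14 to 11.1 CPM) are still possible, and this floor and the intervals given here cover counting error only, since PCR copies were not told apart. Genes that every cell uses held few counts, with 6 over the 9 libraries on Actb, 4 on Rplp0, 1 on B2m, 0 on Hprt, 53 on Eef1a1 and 76 on Gapdh. Some features opposite well-known transcripts held many, with 44560 counts on Tsix against 77 on Xist, 78001 on Gm37376 against 115 on Malat1 and 130075 on Gm48529 against 159 on Tagln. Others did not, with 47 counts on Iffo1 against 76 on Gapdh and 0 on Gm15179 against 64 on Des. The examples of both kinds were picked after their values were seen, and the lengths of their overlaps were not compared. From which strand's RNA the counts of a feature came was not tested. This holds for the levels of every feature given here, Naa35 and Golm1 included.

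Naa35 held 429, 237 and 289 counts in the sham libraries. In the injury libraries it held 567, 542 and 506 counts. In the CRC libraries it held 103, 127 and 105 counts. Every injury library was above every sham library, and every sham library was above every CRC library, so the groups did not overlap. On the scaled level these counts were 1391, 877 and 1033 CPM in sham, 1967, 1906 and 1775 CPM in injury and 314, 390 and 320 CPM in CRC. The level of Naa35 was 1101 ± 264 CPM (SD, n = 3) in sham mice, 1883 ± 98.0 CPM in injury and 341 ± 42.4 CPM in CRC. Sham was the most variable group, with a coefficient of variation of 23.9%, against 5.20% in injury and 12.4% in CRC. Counting error alone would give 5.60%, 4.31% and 9.46%.

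The fitted log2 fold change of Naa35 in injury against sham was 0.77 (standard error 0.16), which is 1.71-fold. In CRC against injury the log2 fold change was -2.46 (standard error 0.18), and Naa35 was 5.51-fold lower. In CRC against sham it was -1.69 (standard error 0.18), and Naa35 was 3.23-fold lower. The drop after transplantation thus reached below the level of sham mice. These comparisons share libraries pairwise and are not independent of each other. As a share of all records of a library, unaligned ones included, Naa35 had 8.42 ± 2.31 counts per 1000000 records (SD, n = 3) in sham mice, 15.3 ± 0.665 in injury and 3.18 ± 0.346 in CRC, in the same order.

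**Figure D1:**
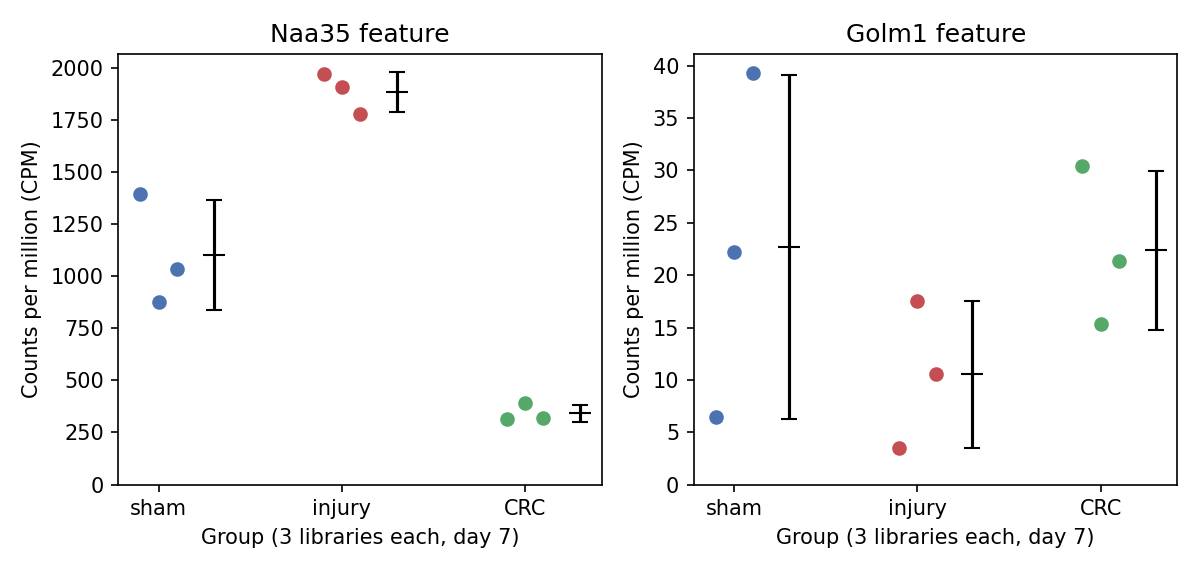
Levels of Naa35 (left) and Golm1 (right) in CPM on the y axis, by group on the x axis, with 1 point per library and the mean ± SD (n = 3) beside the points. The y axes differ in scale. The groups are apart for Naa35, between 314 and 1967 CPM, and overlap for Golm1, between 3.47 and 39.3 CPM.

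Over all features, 16 of 3722 tested (0.430%) differed between injury and sham in edgeR's quasi-likelihood fit at an adjusted p under 0.05, and 10 (0.269%) were higher after injury. Between CRC and injury 481 features (12.9%) passed the threshold, of which 291 (7.82%) were lower in CRC. Between CRC and sham 746 features (20.0%) passed it, of which 447 (12.0%) were lower in CRC. With library sizes from all records and without TMM scaling the majority turned. There were then 334 of 523 features higher in CRC than in injury and 643 of 924 higher in CRC than in sham. Nothing is read from these shares for Naa35, which was chosen on these comparisons, and Golm1 was not tested. The count for injury against sham was 154 without sham replicate 1, 3 without sham replicate 3 or injury replicate 2, 8 without injury replicate 1 and 4 without injury replicate 3. Naa35 was 1 of 20 features tested (0.537%) whose groups were in the order injury, sham and CRC from high to low without overlap. By log2 fold change Naa35 stood at rank 292 from the top in injury against sham, at rank 47 from the bottom in CRC against injury and at rank 149 from the bottom in CRC against sham, of 3722.

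Golm1 held few counts in every library. There were 2, 6 and 11 counts in sham mice, 1, 5 and 3 after injury and 10, 5 and 7 after transplantation. The groups overlapped, and single libraries of a group differed more than the groups did. The level of Golm1 was 22.7 ± 16.4 CPM (SD, n = 3) in sham mice, 10.5 ± 7.06 CPM in injury and 22.4 ± 7.60 CPM in CRC. Summed over a group, sham gave 19 counts (95% Poisson interval 11.4 to 29.7), 9 in injury (4.12 to 17.1) and 22 in CRC (13.8 to 33.3). Golm1 had too few counts to be kept for testing, and a difference between the groups was not detectable in these counts. Fitted without the filter, its log2 fold change was -0.99 (standard error 0.91) in injury against sham, 1.02 (standard error 0.90) in CRC against injury and 0.03 (standard error 0.83) in CRC against sham. Each of these was close to its standard error or below it.

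Set side by side, nearly all counts of the pair lay on Naa35. Per kilobase of annotated exon, Naa35 had a level of 124 ± 29.7 CPM per kb (SD, n = 3) in sham mice, 212 ± 11.1 in injury and 38.5 ± 4.79 in CRC. Golm1 had a level of 5.13 ± 3.71 CPM per kb in sham, 2.38 ± 1.59 in injury and 5.06 ± 1.72 in CRC. More counts per kilobase were thus assigned to Naa35 than to Golm1 in every group. Of the counts on both features, Naa35 held 98.0% in sham (955 of 974, 95% exact binomial interval 97.0% to 98.8%), 99.4% in injury (1615 of 1624, 98.95% to 99.7%) and 93.8% in CRC (335 of 357, 90.8% to 96.1%). The lowest share was 91.2% in CRC replicate 1 (84.3% to 95.7%) and the highest 99.8% in injury replicate 1 (99.02% to 99.996%). The share was lowest in CRC, where Naa35 was lowest, while the counts of Golm1 stayed between 1 and 11. Over the 9 libraries Naa35 had 2905 counts and Golm1 had 50, and by total counts Naa35 ranked 117 of 55228 features and 70 of 21706 protein-coding ones.

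In the GENCODE M21 annotation of GRCm38, Naa35 (ENSMUSG00000021555.15) lies on the plus strand of chromosome 13 from 59585259 to 59635922. Golm1 (ENSMUSG00000021556.12) lies on the minus strand from 59634626 to 59675811. Their exons share 1297 bp, from 59634626 to 59635922, which is 14.6% of the exon length of Naa35 and 29.3% of that of Golm1. Transcript Naa35-201 has 23 exons and codes for 725 residues, and Golm1-201 has 10 exons and codes for 393. The shared stretch lies in the 3′ UTR of both, beginning 149 bases past the stop codon of Naa35-201 and 1370 bases past that of Golm1-201. The last coding bases are shown with the stop codon in capitals, since they mark where the coding sequences end before the overlap, for Naa35-201 at chr13:59634448-59634477 on the plus strand and for Golm1-201 at chr13:59637292-59637321 on the minus strand (GRCm38, GENCODE M21).
Naa35-201: aaatattttcctgttgtgaaactggttTGA
Golm1-201: gtaggcattcatattcctcaacaagccTGA
In RefSeq on GRCm38.p6 the genes end sooner and do not meet, with Naa35 ending at 59634798, Golm1 at 59634996 and 197 bases between them. The overlap of the neighbours therefore depends on the annotation. Whether the counting used strand is not stated in the sources used here, and the reads of Naa35 and of Golm1 cannot be told apart, in the shared stretch or as the whole count of a feature. Records listed as ambiguous were 0.00493% to 0.0773% of all records of a library. They numbered 28622 and 24851 in sham replicates 2 and 3, beside 317754 and 327883 counts on features. Sham replicate 1 had 2571 of them, and the injury and CRC libraries had 1751 to 6470. Naa35 held 237 and 289 counts in sham replicates 2 and 3 and 429 in sham replicate 1. A link between its counts and the ambiguous records was not tested. The files give a single count per feature, and where in either gene its reads lay was not analysed here.

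**Figure D2:**
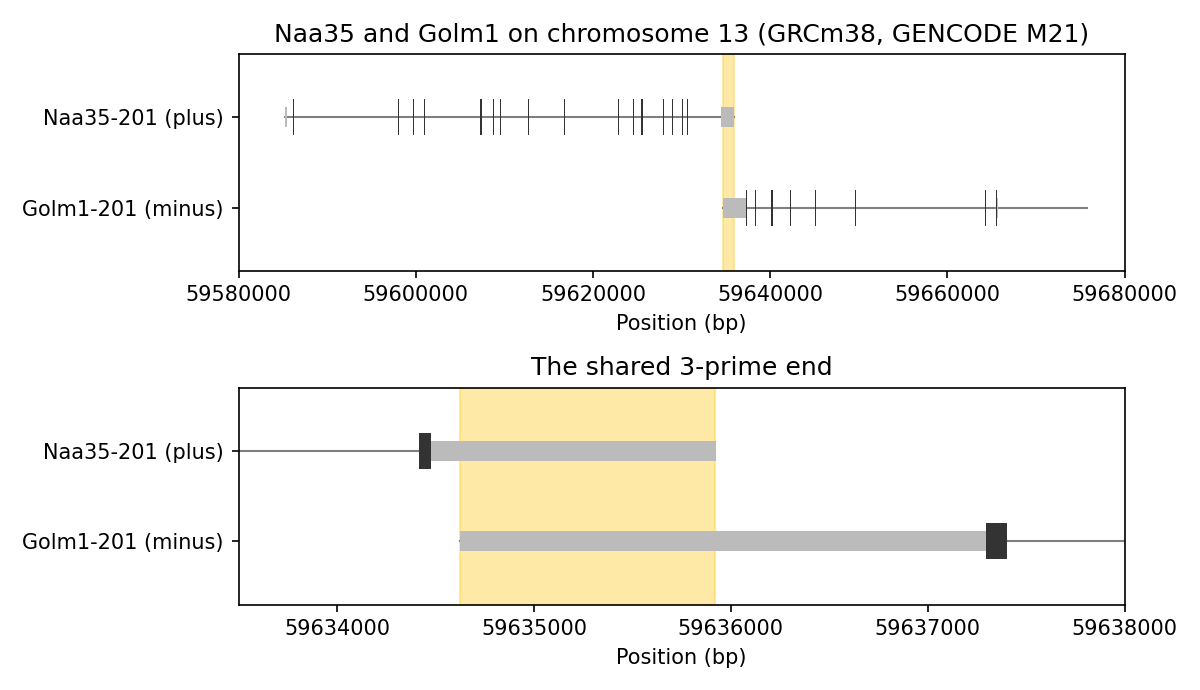
Map of Naa35-201 and Golm1-201 on chromosome 13 of GRCm38 (x axis, position in bp), with the whole locus above and the shared 3′ end below. Black boxes are coding sequence, grey boxes are untranslated exon and the yellow band is the 1297 bp shared by exons of both genes, which lies past both stop codons.

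Around the pair few counts were found. Upstream of Naa35 lies Agtpbp1, an enzyme that trims glutamates from tubulin, which is transcribed away from Naa35, with 31 bases between them. Agtpbp1 held 0, 2 and 0 counts in sham mice, 3, 0 and 0 after injury and 0 in each CRC library. The other neighbours on that side, A930015P04Rik, 4930455M05Rik, Gm34788 and Gm34721, held 0 to 3 counts over the 9 libraries, and Gm47246, within Naa35, held 0. On the side of Golm1, 4921517D22Rik, Gm47269, Spata31d1a and Spata31d1b held 0 counts, and Spata31d1d, of a family expressed in testis, held 17 counts over the 9 libraries. The counts on Naa35 thus stood alone among its nearest neighbours.

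Of the NatC complex, Naa35 was the one subunit with counts to compare. Naa30, the catalytic subunit, held 0 counts in each of the 9 libraries, which allows up to 3 counts in each. Naa38 held 0 counts in all sham mice, 0, 3 and 1 after injury and 0, 1 and 0 after transplantation. These counts were too few for a test. Tmem88, whose exons lie opposite Naa38, held 59 counts over the 9 libraries and was not tested.

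Of the 12 other N-terminal acetyltransferase genes, 11 were in the files and 3 were tested. These were Naa15, the ribosome anchor of NatA, Naa20, the catalytic subunit of NatB, and Naa25, its auxiliary subunit. Naa25 held 11, 12 and 7 counts in sham mice, 15, 30 and 15 after injury and 17, 24 and 41 after transplantation. Every CRC library was above every sham library, and Naa25 rose in CRC against sham with a log2 fold change of 1.25 and an SE of 0.45 (edgeR quasi-likelihood test, Benjamini-Hochberg adjusted p = 0.0488), as 1 of the 3 tested, beside 20.0% of all features. The adjusted p of this call ranged from 0.0124 to 0.314 over 14 alternatives and was past the threshold in 4 of them, but not with DESeq2's size factors or Wald test, without the filter, with these groups alone, with the replicate block, with sham replicate 1 as the one sham library (added after the data were seen, and assumed to vary like the other groups), without sham replicate 1 or 3 or without CRC replicate 2 or 3. Naa25, with 172 counts over the 9 libraries, lies opposite Erp29, with 1775, and the part of reads from Erp29 in the counts of Naa25 was not tested. In injury against sham the log2 fold change of Naa25 was 0.99 (standard error 0.46). Naa15 had log2 fold changes of -0.69 (standard error 0.67) in injury against sham, 0.23 (0.68) in CRC against injury and -0.46 (0.65) in CRC against sham. Naa20 had log2 fold changes of -0.75 (0.49), 0.18 (0.50) and -0.57 (0.47) in the same order. Neither passed the threshold in any comparison. The median log2 fold change of the 3 genes was -0.69 in injury against sham, 0.23 in CRC against injury and -0.46 in CRC against sham, beside -0.0066, 0.0080 and 0.027 over all features tested.

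Of the 33 genes of Golgi structure and transport, 32 were in the files, 9 of them with 0 counts, and 7 were tested. Gorasp1, a protein that stacks Golgi cisternae, had the most counts, 809 over the 9 libraries. It held 108, 60 and 80 counts in sham mice, 105, 60 and 94 after injury and 103, 119 and 80 after transplantation, and the groups overlapped. None of the 7 passed the threshold in edgeR in any comparison (0 in each, beside 0.430%, 12.9% and 20.0% of all features), and DESeq2 called 0 in each. At an unadjusted p under 0.05 there were 0 in injury against sham, 0 in CRC against injury and 1 in CRC against sham. The median log2 fold change of the list was 0.51 in injury against sham, 0.12 in CRC against injury and 0.85 in CRC against sham, beside -0.0066, 0.0080 and 0.027 over all features tested.

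Of the 20 Golgi glycosylation enzymes, 2 were tested, Man2a2 and Mgat4a. Man2a2, a mannosidase that trims N-glycans, held 37, 21 and 34 counts in sham mice, 19, 19 and 21 after injury and 58, 43 and 39 after transplantation. Every CRC library was above every injury library, and Man2a2 rose in CRC against injury with a log2 fold change of 1.05 and an SE of 0.32 (edgeR quasi-likelihood test, Benjamini-Hochberg adjusted p = 0.0283), as 1 of the 2 tested, beside 12.9% of all features. Over 14 alternatives its adjusted p ranged from 0.0076 to 0.189, and it was lost without the filter, without any 1 of the injury replicates and without CRC replicate 1 or 2. Man2a2, with 291 counts over the 9 libraries, lies opposite Hddc3, with 945. The log2 fold change of Hddc3 in CRC against injury was 0.33 (standard error 0.24), and it did not pass. The part of reads from Hddc3 in the counts of Man2a2 was not tested. Mgat4a, which adds a branch to N-glycans, passed the threshold in no comparison.

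Of the 12 genes of the mTOR pathway, which controls growth and protein synthesis, 2 were tested. These were Tsc2, which lies opposite Pkd1, and Rps6kb1, which lies opposite Rnft1. The part of reads from the opposite features in their counts was not tested. Tsc2, an inhibitor of mTOR, held 167, 174 and 178 counts in sham mice, 93, 114 and 91 after injury and 146, 142 and 143 after transplantation. It fell in injury against sham, with every injury library below every sham library and a log2 fold change of -0.80 and an SE of 0.18 (edgeR quasi-likelihood test, Benjamini-Hochberg adjusted p = 0.0366), as 1 of the 2 tested, beside 0.430% of all features. Rps6kb1, a kinase downstream of mTOR, rose in CRC against sham with a log2 fold change of 0.89 and an SE of 0.29 (edgeR quasi-likelihood test, Benjamini-Hochberg adjusted p = 0.0285), as 1 of the 2 tested, beside 20.0% of all features, and each of the 3 CRC libraries was above all sham libraries. Of 15 alternatives, Tsc2 was past the threshold in 5, with an adjusted p from 0.0052 to 0.377, and Rps6kb1 in 10, with an adjusted p from 0.0042 to 0.424. Tsc2 was lost with library sizes from all records and no TMM scaling, without the filter, with these groups alone and with the replicate block. It was also lost without sham replicate 2 or 3 and without any 1 of the injury replicates. Rps6kb1 was lost without sham replicate 2 or 3 and without CRC replicate 1 or 2. Both were also lost with sham replicate 1 as the one sham library.

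Tail-to-tail pairs like Naa35 and Golm1 were frequent among features with counts. In the annotation, 818 pairs of protein-coding genes had exons that overlap at their 3′ ends on opposite strands, with 1625 features in all. Of these features 803 (49.4%) reached 10 or more counts on average, against 435 of 3606 (12.1%) among coding features with another kind of opposite exon and 710 of 16475 (4.31%) among those with none. Of the 592 pairs with at least 90 counts over the 9 libraries, 240 (40.5%) had over 90% of them on a single feature, as Naa35 and Golm1 did with 98.3%, and the median was 85.7%. By counts the pair of Naa35 and Golm1 ranked 66, and 99 of the 818 pairs had a longer overlap than its 1297 bp, the median being 346.5 bp. Without Naa35, 858 features of such pairs were tested, of which 2 (0.233%) passed the threshold between injury and sham, 138 (16.1%) between CRC and injury and 198 (23.1%) between CRC and sham, beside 0.430%, 12.9% and 20.0% over all features.

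**Figure D3:**
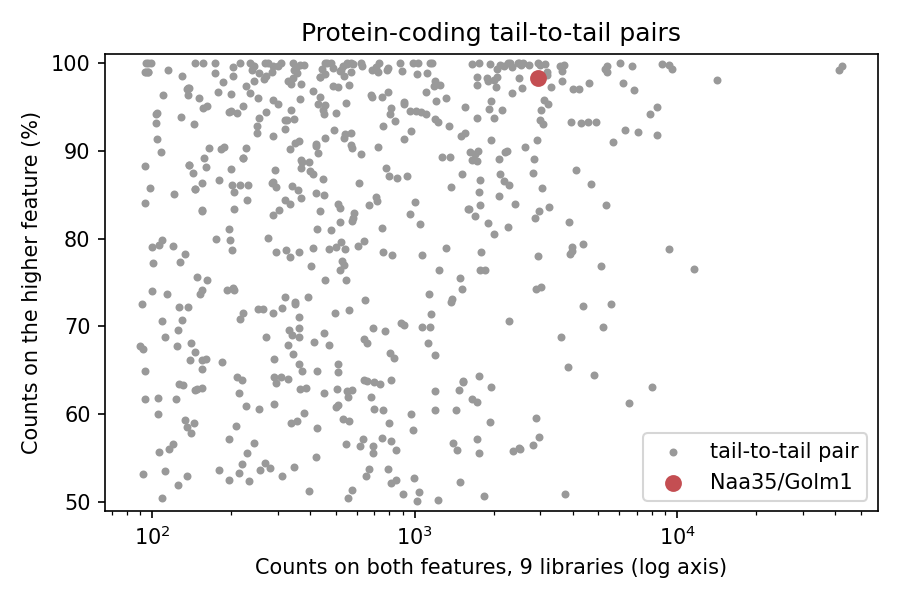
Each of the 592 tail-to-tail pairs of protein-coding genes with at least 90 counts, by its counts over the 9 libraries (x axis, log scale) and the percentage on its higher feature (y axis). Naa35 and Golm1, in red, had 2955 counts with 98.3% on Naa35, among the 240 pairs above 90%.

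The 2 features that passed between injury and sham were Tsc2 and Mterf4. Mterf4, a regulator of mitochondrial ribosome assembly that overlaps Sned1 by 1855 bp, held 590, 263 and 429 counts in sham mice, 648, 996 and 898 after injury and 787, 1051 and 847 after transplantation. It rose in injury against sham, with each of the 3 injury libraries above all sham libraries and a log2 fold change of 1.01 and an SE of 0.19 (edgeR quasi-likelihood test, Benjamini-Hochberg adjusted p = 0.0168). Over 15 alternatives its adjusted p ranged from 1.8e-07 to 0.161, and the call was lost with the replicate block, with sham replicate 1 as the one sham library, without sham replicate 3 and without injury replicate 2 or 3. Unlike Naa35, Mterf4 had similar counts in CRC and injury, with a log2 fold change of -0.12 (standard error 0.19). Tsc2 held 1248 counts over the 9 libraries and its partner Pkd1 97, with 92.8% on Tsc2 and an overlap of 693 bp. Zmym1 held 65, 46 and 39 counts in sham mice, 135, 161 and 165 after injury and 184, 199 and 164 after transplantation, with 98.0% of the counts of Zmym1 and its convergent neighbour Sfpq. Zmym1 rose in injury against sham, with each of the 3 injury libraries above all sham libraries and a log2 fold change of 1.63 and an SE of 0.21 (edgeR quasi-likelihood test, Benjamini-Hochberg adjusted p = 1.7e-05, up to 0.0028 over the alternatives). Exons of Zmym1 and Sfpq do not overlap in the annotation, where 10080 bases lie between them.

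The features most like Naa35 were taken as the 10 with the highest Pearson correlation of log2 CPM over the 9 libraries, which also share their group differences. Kctd18, which codes for a protein with a BTB domain and lies opposite Sgo2a, came first with r = 0.989. It held 425, 214 and 242 counts in sham mice, 446, 545 and 481 after injury and 84, 130 and 116 after transplantation, so that sham replicate 1 was the highest sham library as for Naa35. The others were Gm48840 (r = 0.985), D10Wsu102e (0.983), Gm20628 (0.983), Rccd1 (0.981), Hemk1 (0.972), Cdc23 (0.960), Acbd5 (0.956), Gm42923 (0.953) and Prss23os (0.953). Rccd1, which lies opposite Prc1, held 241, 119 and 179 counts in sham mice, 310, 219 and 284 after injury and 18, 34 and 25 after transplantation. Cdc23, which codes for a subunit of the anaphase-promoting complex, lies opposite Kif20a. Cdc23 held 204, 147 and 141 counts in sham mice, 224, 278 and 309 after injury and 50, 28 and 38 after transplantation. In both genes the CRC libraries were far below the rest. Hemk1, a methyltransferase, held 35, 19 and 35 counts in sham mice, 60, 52 and 41 after injury and 2, 1 and 0 after transplantation. Acbd5, a peroxisomal membrane protein, held 77, 46 and 57 counts in sham mice, 58, 104 and 76 after injury and 19, 18 and 12 after transplantation. Of the 10 features, 7 have an exon opposite an annotated exon, as do 2158 (58.0%) of all features tested, and D10Wsu102e and Cdc23 belong to tail-to-tail pairs. Gm48840 lies opposite Mpzl2 and Mpzl3, D10Wsu102e opposite Aldh1l2 and Prss23os opposite Prss23. Gm20628 lies opposite Gm42743, Hist2h2bb and Hist2h3b. The part of reads from opposite features in these counts was not tested.

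Markers of cell types were read in the same libraries, since the uterus holds epithelium, stroma, muscle and vessels. Of 12 markers of endometrial epithelium 0 were tested, and Cdh1 and Foxa2 were at 0. Their summed counts were 17, 12 and 6 in sham mice, 3, 8 and 5 after injury and 12, 7 and 4 after transplantation, with Muc1 the most abundant at 27 counts over the 9 libraries. The defining markers of the labelled tissue's epithelium thus had few counts in all groups, as did Actb and B2m, which every cell uses, so no level of the epithelium is read from them. Of 11 stromal markers 3 were tested, with sums of 52, 62 and 91 in sham mice, 41, 51 and 39 after injury and 46, 33 and 45 after transplantation, and Hoxa11 was the most abundant with 147 counts. Col1a1 and Col3a1, fibrillar collagens, fell in CRC against sham, with log2 fold changes of -2.74 (SE 0.66, edgeR adjusted p = 0.0032) and -1.93 (SE 0.60, edgeR adjusted p = 0.0219), and in both every CRC library was below every sham library. These were 2 of the 3 tested, beside 20.0% of all features, and Hoxa11 had a log2 fold change of -0.15 (SE 0.54) in that comparison and did not pass. Of the markers not tested, Hoxa10 (4.32 CPM in sham and 20.4 CPM in CRC) and Pdgfra (3.58 and 8.16 CPM) had a higher mean level in CRC, and Vim (25.4 and 10.2 CPM), Hand2 (14.1 and 6.11 CPM), Wt1, Dcn and Lum a lower one. Col1a1 was lost without sham replicate 3, and Col3a1 without the filter, without sham replicate 2 and without CRC replicate 2 or 3, with an adjusted p of up to 0.306 and 0.458 over the alternatives. Both were also lost with sham replicate 1 as the one sham library, with log2 fold changes of -1.83 and -1.22.

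Of 8 smooth muscle markers 3 were tested, with sums of 123, 151 and 137 in sham mice, 84, 95 and 90 after injury and 79, 76 and 102 after transplantation. Myh11, the smooth muscle myosin and most abundant of them with 459 counts, fell in CRC against sham with every CRC library below every sham library and a log2 fold change of -1.24 (SE 0.30, edgeR adjusted p = 0.0030, at most 0.046 over the alternatives), as 1 of the 3 tested, beside 20.0% of all features. In that comparison Tagln had a log2 fold change of -1.13 (SE 0.42) and Lmod1, an actin nucleator of smooth muscle, of 0.13 (SE 0.44), and neither passed, while of the markers not tested Cnn1 had a mean level of 11.9 CPM in sham and 23.5 CPM in CRC, Acta2 of 22.3 and 11.2 CPM, Des of 41.6 and 17.3 CPM and Smtn of 13.7 and 11.2 CPM. In injury against sham 0 of the 3 passed in edgeR, beside 0.430% of all features, and 0 in DESeq2, with 1 at an unadjusted p under 0.05. The log2 fold changes there were -0.90 (SE 0.30) for Myh11, -0.36 (SE 0.40) for Tagln and 0.07 (SE 0.45) for Lmod1. Of 6 endothelial markers 0 were tested, with sums of 19, 3 and 10 in sham mice, 8, 11 and 9 after injury and 10, 19 and 8 after transplantation, and Emcn was the most abundant with 48 counts. Of 9 immune markers 7 were at 0, and Cd68 and Ms4a1 had 2 counts each, with 0 counts for the whole list in every sham and CRC library. Of 4 adipose markers 3 were at 0, and Plin1 had 3 counts. Of 6 markers of oviduct and ovary 3 were at 0, Star had 1236 counts and the list summed to 141, 126 and 115 in sham mice, 114, 101 and 109 after injury and 177, 204 and 153 after transplantation. Star, which carries cholesterol into mitochondria, passed the threshold in no comparison. Of 3 steroid receptors, with sums of 71, 69 and 100 in sham mice, 63, 53 and 49 after injury and 96, 82 and 80 after transplantation, Pgr was the most abundant with 619 counts, and it passed the threshold in no comparison. A list of 11 genes, most of them widely expressed, also held Xist and its antisense RNA Tsix, which is no widely expressed gene. Tsix had the most counts, 44560, and was lower in CRC than in sham (log2 fold change -0.40, SE 0.12, edgeR adjusted p = 0.0134, up to 0.513 over the alternatives), with each of the 3 CRC libraries below all sham libraries. It was lost with library sizes from all records and no TMM scaling (log2 fold change -0.11), without the filter, without sham replicate 2 and without CRC replicate 3. With sham replicate 1 as the one sham library its log2 fold change was -0.24. Tsix was the 1 called of the 5 tested in this list in CRC against sham, beside 20.0% of all features. Gapdh, Tubb5, Xist and Malat1 were tested and did not pass in that comparison. Tsix lies opposite Xist, and from which strand's RNA the counts on Tsix came was not tested. The part of cell composition in the levels of Naa35 was not tested.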

How the data were processed

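For each of the 9 libraries, unnormalized counts on 55228 features were deposited by the authors. Per the submitters' processing notes HISAT2 2.1.0 and StringTie 2.1.1 were used, while the version and strand setting of the counting are not given in the sources used here. The 5 rows that name no gene, which have the names that htseq-count writes, held 99.2% of all records and were left out of library sizes and tests. Features were matched by name to GENCODE M21, which found 53569 of them with 98.5% of the counts, and exon overlaps were taken with bedtools 2.31.1. The annotation version named in the paper was not used here. RefSeq positions were from GRCm38.p6.

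The software was edgeR 4.0.16 and DESeq2 1.42.0 with limma 3.58.1 under R 4.3.3, and pandas 2.3.3, scipy 1.17.1, matplotlib 3.10.9 and numpy 2.4.6 under Python 3.11.15. After filterByExpr 3722 features were left and scaled by TMM. The 9 libraries were fitted together by robust quasi-likelihood without covariates, with Benjamini-Hochberg adjustment over all features tested and a threshold of 0.05. The fit was tested on simulated data. Groups were taken from the sample labels. For correlations a prior count of 2 was added before log2 CPM were taken.

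The members and gene lists were chosen with earlier results of these data known. Further features were named for lying opposite a named one. Named were the pair, the other NatC subunits, the 5 nearest genes on each side with overlapping features, the 10 features most correlated with Naa35, list members past the threshold (at most 6 per list), the most abundant marker of each marker list, tail-to-tail pairs with a called feature between injury and sham, and the pairs of Zmym1 and Sfpq and of Tsc2 and Pkd1. Naa15, Naa20, Tmem88, Gorasp1, Mgat4a, Cdh1, Foxa2, Erp29, Lmod1, Cnn1, Acta2, Des, Smtn, Hoxa10, Pdgfra, Vim, Hand2, Wt1, Dcn, Lum, Actb, Rplp0, B2m, Hprt, Eef1a1, Gapdh, Tubb5, Xist, Malat1, Gm37376, Tagln, Gm48529, Iffo1 and Gm15179 were outside this rule and were named after their values were seen.

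Alternatives were DESeq2 size factors, the upper quartile, library sizes with all records and no TMM (with the same 3722 features), DESeq2's Wald test, no filter, a minimum of 10 counts in every library, the compared groups fitted by themselves, a replicate block, leaving out each replicate, an adjusted p under 0.01, and for the correlations a prior count of 0.5 and Spearman's coefficient. In the alternative with all records, features were first chosen anew with the changed library sizes, and the 3722 features were kept in their place after that result had been seen. The library sizes and the TMM scaling thus changed together, while the features tested did not.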

Additional observations from a re-analysis of the deposited data

How the results depend on the processing

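The log2 fold changes of Naa35 kept their sign in all 44 values from alternatives, and 41 of these differed from the reported value by less than the pooled SD within groups (0.22 on the log2 scale). With library sizes that include all records and without TMM scaling, the value in CRC against sham was -1.40. The median of all features was then 0.32 in that comparison and 0.21 in CRC against injury, against 0.027 and 0.0080 as reported. With sham replicate 1 as the one sham library, chosen after the data were seen because sham replicates 2 and 3 had 28622 and 24851 ambiguous records against 2571, and with this lone library assumed to vary like the other groups, the log2 fold change of Naa35 was 0.42 in injury against sham and -2.08 in CRC against sham. With each replicate left out in turn it lay between 0.63 and 0.98 in injury against sham, between -2.57 and -2.41 in CRC against injury and between -1.86 and -1.50 in CRC against sham. Golm1 was not kept by the filter of the reported fit, and a value for it was read only from the fit without a filter.

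At an adjusted p under 0.01 there were 5 features between injury and sham, 289 between CRC and injury and 437 between CRC and sham. Between injury and sham the count was 6 with these groups alone and between 3 and 154 with each replicate left out, the cause of which was not tested. With all records in the library sizes and without TMM scaling, 643 of 924 calls between CRC and sham were towards CRC, against 299 of 746. So were 334 of 523 between CRC and injury, against 190 of 481. Of 17 features then called between injury and sham 14 were higher, against 10 of 16.

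With the replicate block, 5 features were called between injury and sham, against 16. Deviations from the group means of same-numbered libraries had correlations of -0.096 to 0.080 over features. Those of libraries with other numbers had correlations of -0.069 to 0.115. With 3 libraries per group and many low counts, these values cannot decide whether same-numbered mice were paired. The other counts were within 1.5 times of the reported ones under the block.

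Of the 10 features most like Naa35, 9 were shared with a prior count of 0.5 and 5 with Spearman's coefficient. Of 12 calls of list members, Mterf4 and Zmym1, 3 (Myh11 in CRC against sham, and Zmym1 in injury against sham and in CRC against sham) held in every alternative, 9 were lost in at least 1, and 0 reversed, the alternative with 1 sham library included. For calls against sham that alternative also enters the losses and the ranges of adjusted p given. Its spread came from the other groups only. The 10 features most like Naa35 are not among these calls, since they were chosen on the same libraries. Golm1, Naa30, Naa38 and most markers held few counts. The parts of depth and of the assignment of records to features in this were not tested.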

Other observations

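Beyond the nearest neighbours of the pair, the antisense feature Etohd2 (chromosome 13, 59769497 to 59775407, plus strand), chosen after its values were seen, was the next feature with many counts. It lies opposite Isca1, an iron-sulphur cluster assembly gene, and Tut7, a terminal uridyltransferase. Etohd2 held 201, 280 and 236 counts in sham mice, 178, 186 and 202 after injury and 241, 183 and 269 after transplantation. Isca1 held 3 counts over the 9 libraries and Tut7 58. The log2 fold change of Etohd2 was -0.35 (standard error 0.18) in injury against sham, 0.10 (0.18) in CRC against injury and -0.26 (0.18) in CRC against sham, and it passed the threshold in none of them.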
